A study of Mus musculus with 12 samples.

Results

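The antiviral TRIM genes described here are Trim14, Trim21, Trim25, Trim26, Trim30a, Trim30d, Trim34a, Trim34b and Trim56. They were listed by name, found through their Entrez identifiers, and make up 9 of the 17571 genes of the expression table. The cells were L929, an established line of mouse fibroblasts from connective tissue of a C3H/An mouse, and their RNA was sequenced in 12 libraries. The 4 groups of 3 libraries were mock (vehicle DMSO, no plasmid), pEGFP-N1 (vehicle and the EGFP expression plasmid pEGFP-N1), BX795 (inhibitor, no plasmid), and BX795 plus pEGFP-N1. BX795, a small-molecule inhibitor of the kinases TBK1 and IKK epsilon that also acts on PDK1, was used at 0.5 µM from 1 h before transfection, and RNA was collected at 6 h. All groups were cells of 1 line, and the labels do not say whether cells without plasmid received transfection reagent or whether the 3 libraries of a group came from separate cultures. The p-values therefore measure the spread between these libraries, which may be technical.

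TRIM proteins share an N-terminal RING, B-box and coiled-coil arrangement, and most act as E3 ubiquitin ligases through the RING. Many are themselves induced by interferon, and several attach ubiquitin chains to the sensors and adaptors that start the interferon response to viral RNA or cytosolic DNA. Trim25 modifies the RNA sensor RIG-I and is a cofactor of the zinc finger antiviral protein ZAP, Trim56 and Trim14 act on the DNA and RNA sensing pathways, Trim21 binds antibody on incoming virus, and Trim30a restrains NF-kappaB signaling. Trim14 lacks the RING. Trim30d, Trim34a and Trim34b belong, with Trim30a, to a cluster of TRIM copies on chromosome 7 that also holds Trim5, Trim6 and Trim12 genes.

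The sequence that interferon-activated STAT and IRF complexes bind, the interferon-stimulated response element, was searched in the promoters, because 7 of the 9 genes shared 1 pattern across the libraries. Promoters were taken from RefSeq on GRCm38.p6, from 250 bases before to 50 bases after each start, and were matched for 8 of 9 genes (not Trim14). The letters GAAA, any 2 bases and GAAA again, or their reverse complement (TTTC, any 2 bases, TTTC), stood in the promoters of 5 of the 8 genes, namely Trim21, Trim26, Trim30a, Trim30d and Trim34a, against 3.44% of all 32851 promoters and 3.99% of the 27025 genes they belong to. The letters TTCNNNGAA, the gamma-activated site, stood in 0 of the 8 against 8.3% of all promoters. The matches are shown 5′ to 3′ on the strand of the gene, with the matched bases (the any-base positions included) in capitals and overlapping matches run together.
Trim21, chr7:102565447-102565476, minus strand: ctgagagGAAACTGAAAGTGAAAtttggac
Trim26, chr17:36836961-36837026, plus strand: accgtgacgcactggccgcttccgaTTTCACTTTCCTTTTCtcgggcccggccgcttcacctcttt
Trim30a, chr7:104465195-104465254, minus strand: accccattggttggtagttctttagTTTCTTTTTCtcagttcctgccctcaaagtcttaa
Trim30d, chr7:104507856-104507915, minus strand: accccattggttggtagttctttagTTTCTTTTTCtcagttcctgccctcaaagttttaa
Trim34a, chr7:104244457-104244486, plus strand: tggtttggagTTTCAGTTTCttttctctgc

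The match lay 160 bases before the start in Trim26, 36 before it in Trim30a and 41 before it in Trim30d. In Trim21 and Trim34a it lay within the transcript, 13 and 10 bases after the start. A further RefSeq start of Trim30a, outside the GENCODE transcripts, also held a match and is not shown. The windows of Trim30a and Trim30d were identical at 59 of 60 bases, so their matches are not independent counts. Trim25 and Trim34b, which shared the library pattern, held no match, and neither did Trim56. A match is a description of these letters, and no factor binding was measured.

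**Figure D1:**
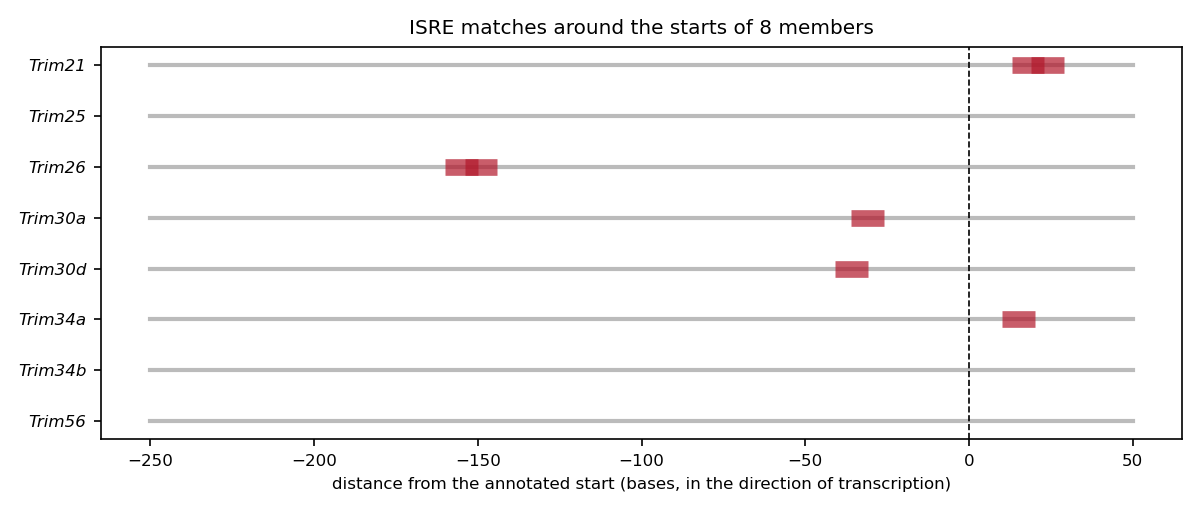
Position of interferon-stimulated response element matches in the RefSeq promoters of the 8 matched TRIM genes, with the distance from the transcription start in bases on the horizontal axis and 1 line per gene. Trim21, Trim26, Trim30a, Trim30d and Trim34a hold a match and Trim25, Trim34b and Trim56 do not.

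How well each gene can be measured depends on how much sequence it shares with others. In GENCODE coordinates of GRCm38, Trim34a (chr7:104244457-104262234, plus strand) shared 68.5% of its 31-base words with other genes, 48.7% with Trim34b and 21.4% with Gm47248, which overlaps it on the opposite strand. Trim34b (chr7:104329471-104336909, plus strand) shared 69.0% with Trim34a, so reads could be split between these copies. Trim30a (chr7:104409025-104465193, minus strand) and Trim30d (chr7:104470014-104507849, minus strand) each shared 11.9%.

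Trim14 (chr4:46493781-46536141, minus strand) shared 36.4% of its words with other genes and 30.4% with Nans, whose exons overlap it on the other strand, and the sources used here do not say whether counting used strand. The other genes shared little. The shares were 1.92% for Trim21 (chr7:102557921-102565486, minus strand), 0.628% for Trim25 (chr11:88999376-89020293, plus strand), 2.31% for Trim26 (chr17:36837134-36859398, plus strand) and 1.15% for Trim56 (chr5:137105644-137116209, minus strand).

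Among the libraries, 2 stood apart from the other members of their labelled group in interferon-induced genes. The median over 8 interferon-induced genes (Ifit1, Ifit3, Isg15, Rsad2, Oasl1, Cxcl10, Usp18 and Irf7) was 61.6 FPKM in pEGFP-N1 replicate 1 and 59.5 in replicate 3 as labelled, but 0.630 in replicate 2, against 0.385 to 0.525 in mock. It was 58.5 in the library labelled BX795 plus pEGFP-N1 replicate 1, but 0.345 and 0.530 in replicates 2 and 3, and 0.465 to 0.585 with BX795 alone. The same libraries also stood apart in genes that respond to the inhibitor, by a measure added after the data were seen. It used the 23 genes, without the interferon and TRIM genes named here, that separated BX795 from mock without overlap by at least 1 in log2, chosen on those 6 libraries alone. On a scale where the mock mean is 0 and the BX795 mean is 1, their median was 0.281, 0.911 and 0.160 in the libraries labelled pEGFP-N1 and 0.206, 1.09 and 0.843 in those labelled BX795 plus pEGFP-N1. Whether these 2 libraries carry each other's label was not tested, and the RT-qPCR that the study ran on its sequencing samples was not analysed here. The labels were used as given, each comparison was repeated without both libraries, and those repeats rest on libraries picked from interferon genes of the same data, so their calls are not independent support. The fibroblast markers Col1a1, Col1a2, Vim, Fn1, Pdgfrb, Sparc, S100a4 and Csf1 passed the filter while Thy1 and Lox did not, and the summed level of the 10 was 6255 to 7741 FPKM, most of it from S100a4 and Vim. In the averaged plasmid comparison of 6 libraries with plasmid and 6 without, 0 of the 8 were called by limma (0% of all genes). At an unadjusted p under 0.05, Col1a2, Sparc and S100a4 were lower and Csf1 higher (6.12% of all genes in either direction). Col1a2 read 27.57, 26.50 and 26.60 FPKM in the 3 libraries with high interferon genes, against 38.04 to 41.48 in mock. Pdgfrb read 20.56, 21.45 and 22.23 there, against 30.60 to 30.92, and Sparc 130.16, 130.51 and 136.81, against 169.36 to 171.68. Csf1 went the other way, at 604.38, 631.53 and 609.07 against 431.98 to 434.76. The part of these shifts in the TRIM values was not tested. All 7 leukocyte, 3 epithelial and 3 endothelial markers were below 1 FPKM in every library.

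In mock cells the 9 genes spanned a wide range of levels per transcript length. Trim25 (17.6 ± 0.646 FPKM, SD, n = 3) and Trim26 (13.0 ± 0.505) were the highest, and their libraries did not overlap. Trim56 followed at 2.34 ± 0.116, above Trim30a at 0.743 ± 0.0351 and Trim21 at 0.730 ± 0.193, which did not differ beyond their spread. Trim30d was at 0.220 ± 0.05, Trim34a at 0.133 ± 0.0404 and Trim14 at 0.103 ± 0.0351, with overlapping libraries between Trim30d and Trim34a and between Trim34a and Trim14. Trim34b was listed at 0 in 2 mock libraries and at 0.11 in the other. FPKM keeps no read totals, so the depth behind each value is not known, and counting error could not be attached to it. The lowest levels, near the 0.01 FPKM rounding step of the table, are the least certain.

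**Figure D2:**
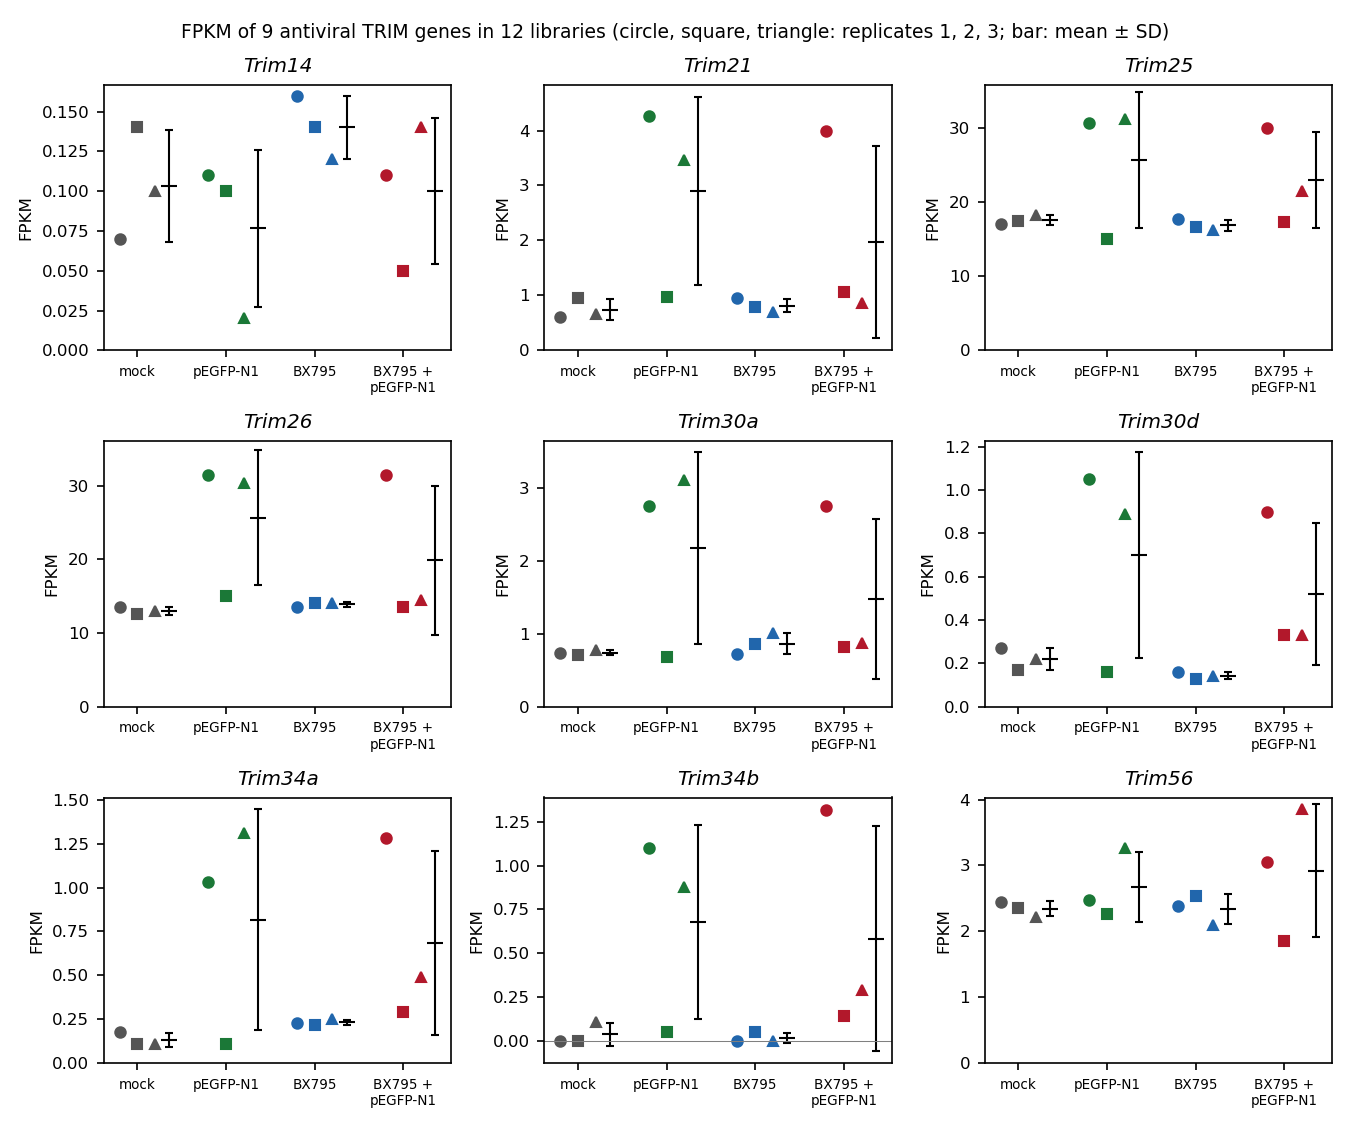
FPKM of each of the 9 TRIM genes in each of the 12 libraries, 1 panel per gene, with a point per library and bars for the mean and SD of each group (n = 3). In every panel except Trim14 and Trim56 the libraries labelled pEGFP-N1 replicates 1 and 3 and BX795 plus pEGFP-N1 replicate 1 lie above the other 9.

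Trim25, the ligase of RIG-I, read 17.01, 17.50 and 18.29 FPKM in mock and 17.67, 16.58 and 16.30 with BX795. It read 30.74, 15.04 and 31.23 in the libraries labelled pEGFP-N1 and 30.02, 17.31 and 21.45 in those labelled BX795 plus pEGFP-N1. The 3 libraries with high interferon genes were 1.71 to 1.77 times the mock mean. The library labelled BX795 plus pEGFP-N1 replicate 3, at 21.45, was the highest of the other 9.

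Trim56, which acts in the DNA and RNA sensing pathways, ranged only from 1.85 to 3.85 FPKM. It read 2.45, 2.36 and 2.22 FPKM in mock, 2.39, 2.54 and 2.10 with BX795, and 2.48, 2.26 and 3.27 in the libraries labelled pEGFP-N1. In those labelled BX795 plus pEGFP-N1 it read 3.06, 1.85 and 3.85, so that its highest and lowest libraries were of the same group. The 3 libraries with high interferon genes were 1.06 to 1.40 times the mock mean and did not lie above the rest.

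Trim14, the RING-less adaptor, ranged from 0.02 to 0.16 FPKM over the 12 libraries, with the lowest mean of the 9 genes over all libraries, although Trim34b was lower in mock and with BX795. No library reached 1 FPKM, and its highest values, 0.16 and 0.14, included BX795 libraries without plasmid. The 3 libraries with high interferon genes read 0.02 to 0.11, within the 0.05 to 0.16 of the others except for the lowest.

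Trim21, the cytosolic antibody receptor, had the widest range over the 12 libraries, 1.73 on the log2(FPKM + 1) scale. It read 0.59, 0.95 and 0.65 FPKM in mock and 0.94, 0.79 and 0.69 with BX795. In the libraries labelled pEGFP-N1 it read 4.26, 0.96 and 3.47, and in those labelled BX795 plus pEGFP-N1 it read 3.99, 1.06 and 0.85. The 3 high libraries were 4.75 to 5.84 times the mock mean, while the other 9 lay between 0.59 and 1.06.

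Trim26, a ligase of the interferon pathway, read 13.55, 12.55 and 12.93 FPKM in mock and 13.52, 14.07 and 14.03 with BX795. It read 31.44, 15.09 and 30.39 in the libraries labelled pEGFP-N1 and 31.43, 13.60 and 14.51 in those labelled BX795 plus pEGFP-N1. The 3 high libraries lay within 2.34 to 2.42 times the mock mean, and the other 9 lay between 12.55 and 15.09.

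Trim30a, the restraint on NF-kappaB signaling, read 0.74, 0.71 and 0.78 FPKM in mock and 0.72, 0.86 and 1.01 with BX795. It read 2.75, 0.68 and 3.11 in the libraries labelled pEGFP-N1 and 2.75, 0.82 and 0.87 in those labelled BX795 plus pEGFP-N1, so the 3 high libraries were 3.70 to 4.18 times the mock mean. Its neighbour Trim30d, whose promoter window is nearly the same, was lower in every library and was high in the same 3, but with BX795 alone it lay below mock where the mean of Trim30a lay above it. Trim30d read 0.27, 0.17 and 0.22 in mock, 0.16, 0.13 and 0.14 with BX795, 1.05, 0.16 and 0.89 with the pEGFP-N1 label, and 0.90, 0.33 and 0.33 with the label of both agents.

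Trim34a read 0.18, 0.11 and 0.11 FPKM in mock and 0.23, 0.22 and 0.25 with BX795. It read 1.03, 0.11 and 1.31 in the libraries labelled pEGFP-N1 and 1.28, 0.29 and 0.49 in those labelled BX795 plus pEGFP-N1. Its 3 high libraries were 7.73 to 9.83 times the mock mean, but that mean was only 0.133 FPKM.

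With the pEGFP-N1 label Trim34b read 1.10, 0.05 and 0.88 FPKM, and it read 1.32, 0.14 and 0.29 in those labelled BX795 plus pEGFP-N1. It was listed at 0 in 2 mock and 2 BX795 libraries. Since reads can be split between the copies, their sum is less exposed to the split: Trim34a and Trim34b together read 0.18, 0.11 and 0.22 in mock, 0.23, 0.27 and 0.25 with BX795, 2.13, 0.16 and 2.19 with the pEGFP-N1 label, and 2.60, 0.43 and 0.78 with the label of both agents. The sum kept the high libraries of the single copies. In limma on log2(FPKM + 1) the summed copies differed by more than Trim34a alone, with 0.95 (SE 0.38, adjusted p = 0.958) for pEGFP-N1 against mock, 0.74 (adjusted p = 0.604) for BX795 plus pEGFP-N1 against BX795, and 0.85 (adjusted p = 0.788) for plasmid averaged over inhibitor states, and none was called.

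Across the 9 genes, the median difference from the mock mean on the log2(FPKM + 1) scale was 0.84, −0.029 and 0.86 in the libraries labelled pEGFP-N1, 0.021, 0.055 and −0.028 with BX795, and 1.01, 0.062 and 0.15 in those labelled BX795 plus pEGFP-N1. In 7 of the 9 genes, all but Trim14 and Trim56, the 3 libraries with high interferon genes lay above the other 9. How many of all tested genes split this way was not counted, so the 7 are a description only. Of the 8 interferon-induced genes, 0 were called by limma in pEGFP-N1 minus mock and 7 were higher at an unadjusted p under 0.05 (4.69% of all genes in either direction). The values above describe 3 libraries that were picked from those 8 genes. In bulk RNA, more responding cells and more RNA per cell cannot be told apart.

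**Figure D3:**
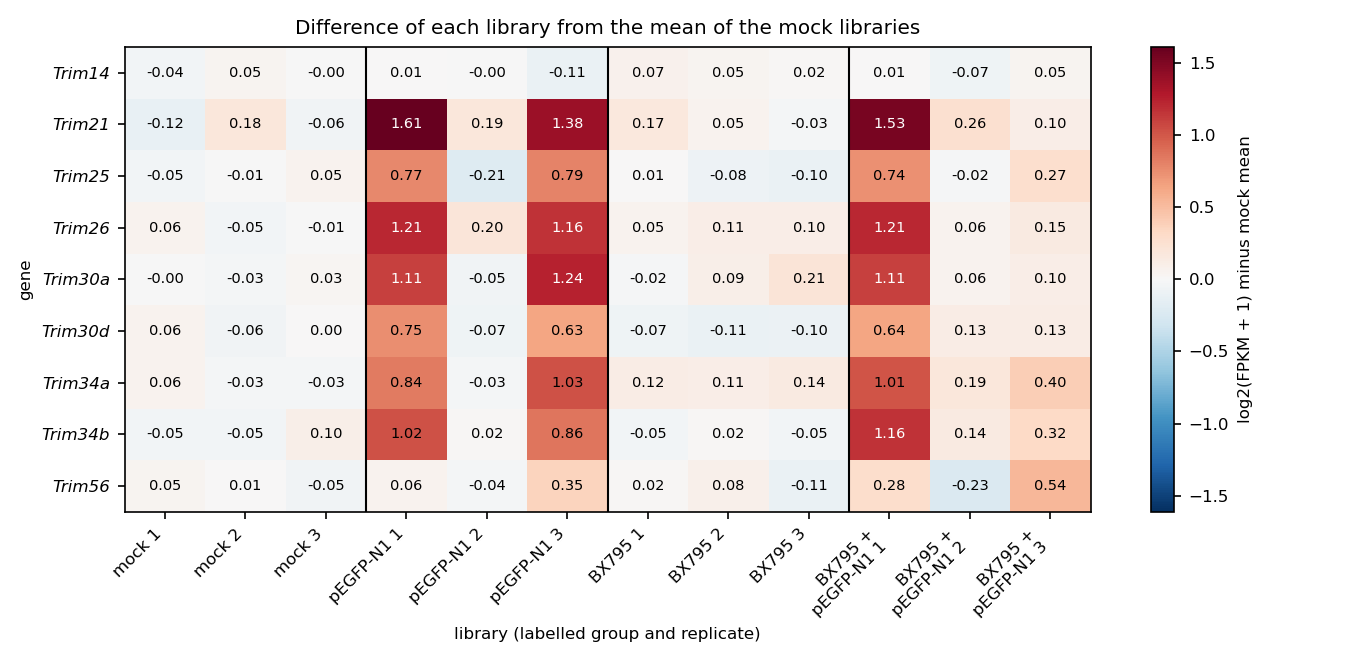
Difference of each library from the mean of the mock libraries, in log2(FPKM + 1), for each of the 9 TRIM genes (rows) and 12 libraries (columns). Only the libraries labelled pEGFP-N1 replicates 1 and 3 and BX795 plus pEGFP-N1 replicate 1 are high in 7 of the 9 genes.

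The groups were compared with limma on log2(FPKM + 1), fitted to all 12 libraries and 10412 genes that had at least 1 FPKM in at least 3 libraries, with Benjamini-Hochberg adjustment over these genes. Trim21, Trim25, Trim26, Trim30a, Trim34a and Trim56 passed this filter. Trim14, Trim30d and Trim34b did not, with 0, 1 and 2 libraries at 1 FPKM. Trim34a passed only through its 3 high libraries, and Trim21 and Trim30a through these and 1 more, so counts over the 6 are given as a description. With plasmid against mock, the comparison that asks whether transfected DNA changed these genes, 0 of 6 were called at an adjusted p under 0.05, against 0.0672% of all genes tested. At an unadjusted p under 0.05, 4 of 6 were higher (Trim21, Trim26, Trim30a and Trim34a), against 4.69% of all genes. Libraries did not overlap for Trim21 and Trim26 only, 2 of 6, against 12.9% of all genes.

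On the log2 scale, Trim21 was 1.06 higher with plasmid than in mock (SE 0.38, limma adjusted p = 0.897) and Trim26 0.86 higher (SE 0.30, adjusted p = 0.855). The exact permutation test of 3 libraries against 3 gave p = 0.1 for both, the smallest it can give. Trim30a differed by 0.76 (SE 0.33, limma adjusted p = 0.995), Trim34a by 0.61 (SE 0.26, adjusted p = 0.995) and Trim25 by 0.45 (SE 0.24, adjusted p = 1.0). Trim56 differed by 0.13 (SE 0.17, adjusted p = 1.0). None of the 6 differences exceeded the spread between libraries after adjustment. That spread is shared by all groups of the fit. It includes the low library labelled pEGFP-N1 replicate 2 and the high one labelled BX795 plus pEGFP-N1 replicate 1. The median over the 6 was 0.69, beside −0.0026 over all genes tested.

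BX795 alone, which asks whether the inhibitor changed these genes without plasmid, called 0 of 6 by limma (0.0672% of all genes), 0 of 6 at an unadjusted p under 0.05 (13.8% of all genes), and left 1 of 6 without overlap (39.8% of all genes). That gene was Trim34a, higher by 0.12 in log2 (limma adjusted p = 0.832), and among the untested genes Trim30d lay lower without overlap, at 0.143 ± 0.0153 against 0.220 ± 0.05 FPKM (exact permutation p = 0.1 for both). The other 5 tested genes differed from mock by −0.060 to 0.093, and the sign for Trim21, Trim30a and Trim56 turned under another scaling. The median was 0.076, beside 0.028 over all genes.

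With plasmid in cells given BX795, against BX795 alone, 0 of 6 genes were called (0% of all genes by limma), 0 of 6 at an unadjusted p under 0.05 (5.56%), and 1 of 6, Trim34a, did not overlap (10.7%). Trim21 differed by 0.57 (SE 0.38, limma adjusted p = 0.611), Trim34a by 0.41 (SE 0.26, adjusted p = 0.604) and Trim25 by 0.39 (SE 0.24, adjusted p = 0.604). Trim26 differed by 0.39, Trim30a by 0.33 and Trim56 by 0.20. Among the genes below the filter, Trim30d (0.39) and Trim34b (0.57) also lay higher without overlap, with an exact permutation p of 0.1 each. In replicates 2 and 3 Trim34a read 0.29 and 0.49 FPKM against 0.22 to 0.25 with BX795 alone, while Trim30a, of the same cluster, read 0.82 and 0.87 and overlapped its BX795 libraries.

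Between the transfected groups, which asks whether BX795 changed the response to plasmid, 0 of 6 were called (0% of all genes), 0 of 6 at an unadjusted p under 0.05 (1.59%), and 0 of 6 did not overlap (2.8%). Trim21 was −0.43, Trim26 −0.39, Trim30a −0.34, Trim25 −0.12, Trim34a −0.083 and Trim56 0.071 in the libraries labelled with both agents relative to those labelled pEGFP-N1, with limma adjusted p from 0.959 to 0.983. The direct test of whether the plasmid effect differed without and with BX795 called 0 of 6 as well (0% of all genes; 0 of 6 at an unadjusted p under 0.05, 3.91%). That difference of effects was 0.49 for Trim21, 0.47 for Trim26 and 0.43 for Trim30a, with limma adjusted p of 0.855, 0.846 and 0.855.

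The 6 libraries with plasmid were also compared with the 6 without, averaged over inhibitor states. The difference itself does not depend on which transfected library carries which inhibitor label, but the limma standard errors and p-values do, since the fit has 4 group means. By limma 0 of 6 genes were called (0% of all genes), and 5 of 6 were higher at an unadjusted p under 0.05 (6.12% of all genes). Trim21 differed by 0.81 (SE 0.27, adjusted p = 0.788), with 2.43 against 0.768 FPKM on average. Trim26 differed by 0.62 (SE 0.21), Trim30a by 0.55 (SE 0.23), Trim34a by 0.51 (SE 0.18) and Trim25 by 0.42 (SE 0.17), each with an adjusted p of 0.788. Trim56 differed by 0.16 (SE 0.12, adjusted p = 0.792). The 6 and the 6 overlapped in every member, as they did in nearly all genes (0.173% did not overlap).

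Exact permutation tests of the same 6 against 6, which use no inhibitor label and whose smallest p is 0.00216, gave unadjusted p = 0.00649 for Trim34b, 0.00866 for Trim21, 0.00866 for Trim26, 0.0152 for Trim30d and 0.0281 for Trim34a. They gave 0.0584 for Trim25, 0.0996 for Trim30a, 0.184 for Trim14 and 0.201 for Trim56. These 9 p-values are for genes chosen with earlier results of these data known.

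**Figure D4:**
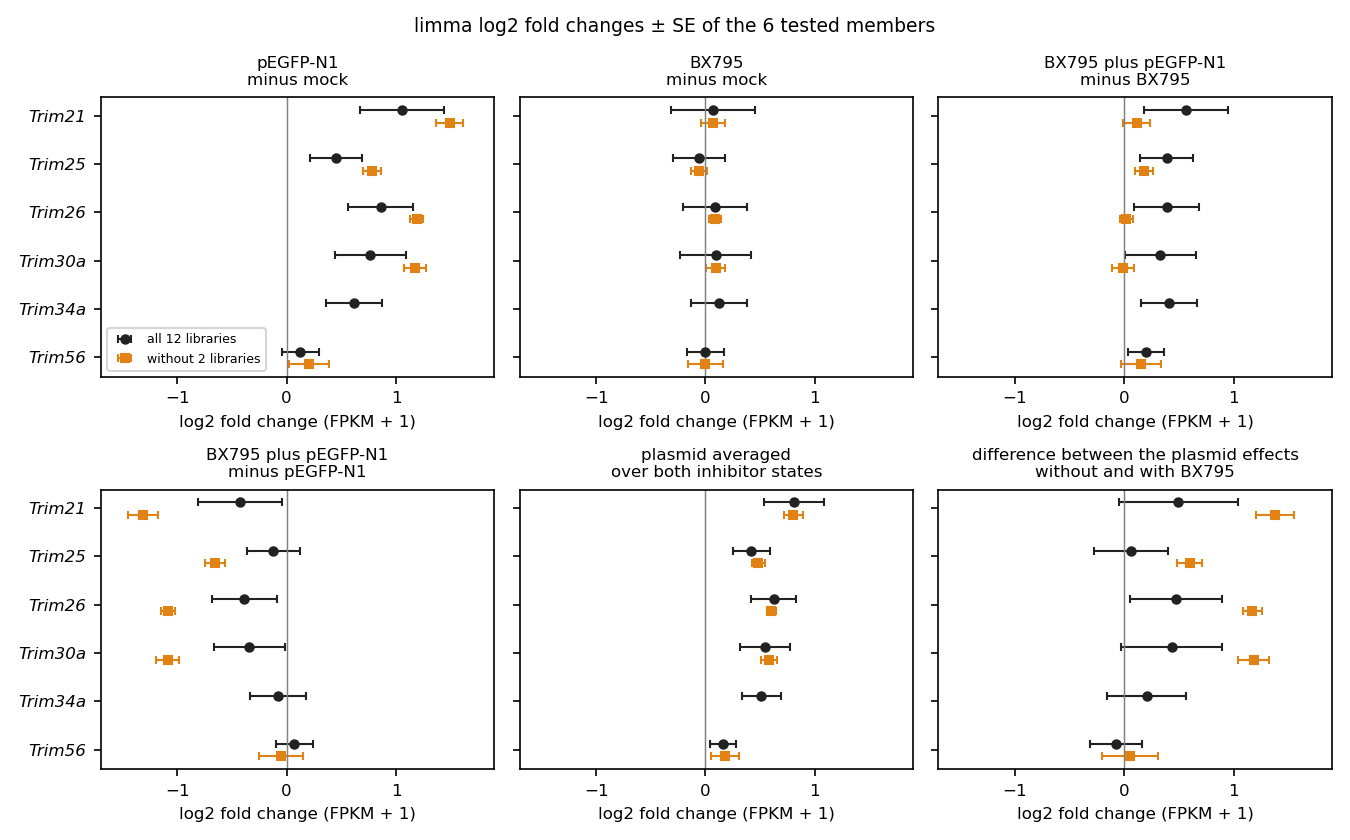
Log2(FPKM + 1) differences with standard errors from limma for the tested TRIM genes in the 6 comparisons, with all 12 libraries and without the 2 libraries that stand apart. Without them Trim21, Trim25, Trim26 and Trim30a lie further from 0 with shorter error bars in pEGFP-N1 minus mock and in BX795 plus pEGFP-N1 minus pEGFP-N1.

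Without the libraries labelled pEGFP-N1 replicate 2 and BX795 plus pEGFP-N1 replicate 1, the calls changed for 4 genes. That left replicates 1 and 3 with the pEGFP-N1 label and replicates 2 and 3 with the label of both agents. The libraries left out were picked from interferon genes of the same data, so the calls without them are not independent support. Of 5 tested (Trim34a fell below the filter), Trim21, Trim25, Trim26 and Trim30a were called higher with plasmid than in mock, against 3.09% of all genes. The log2 differences were 1.49 for Trim21 (SE 0.12, limma adjusted p = 3.16e-05), 0.78 for Trim25 (SE 0.082, adjusted p = 0.00023), 1.19 for Trim26 (SE 0.061, adjusted p = 4.87e-07) and 1.17 for Trim30a (SE 0.099, adjusted p = 3.8e-05). Trim56 was not called, at 0.21 (SE 0.18, adjusted p = 0.589).

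The same 4 were called lower in the remaining libraries with both agents than in those with plasmid alone, against 17.8% of all genes: Trim21 by −1.31, Trim25 by −0.66, Trim26 by −1.08 and Trim30a by −1.09, with limma adjusted p of 0.000117, 0.000863, 2.99e-06 and 0.000101. Against BX795 alone, those libraries called 0 of 5 (0% of all genes), with 1 of 5, Trim25, at an unadjusted p under 0.05 (14.9% of all genes), with a difference of 0.18 and a limma adjusted p of 0.335. Trim21 was 0.11, Trim26 0.017, Trim30a −0.011 and Trim56 0.16 there. The difference between the plasmid effects called the same 4 (0.947% of all genes), and the averaged plasmid comparison did so too (3.85%). BX795 minus mock, whose 6 libraries were all kept, still called 0 of 5, while the share of all genes called was 14.2%, the groups of the fit sharing 1 estimate of the spread.

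Leaving out only the library labelled pEGFP-N1 replicate 2 gave 5 of 6 calls in the averaged plasmid comparison (3.49% of all genes), all but Trim56, with limma adjusted p from 0.0394 to 0.0442. No other single library left out gave a call in any of the 6 comparisons.

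**Figure D5:**
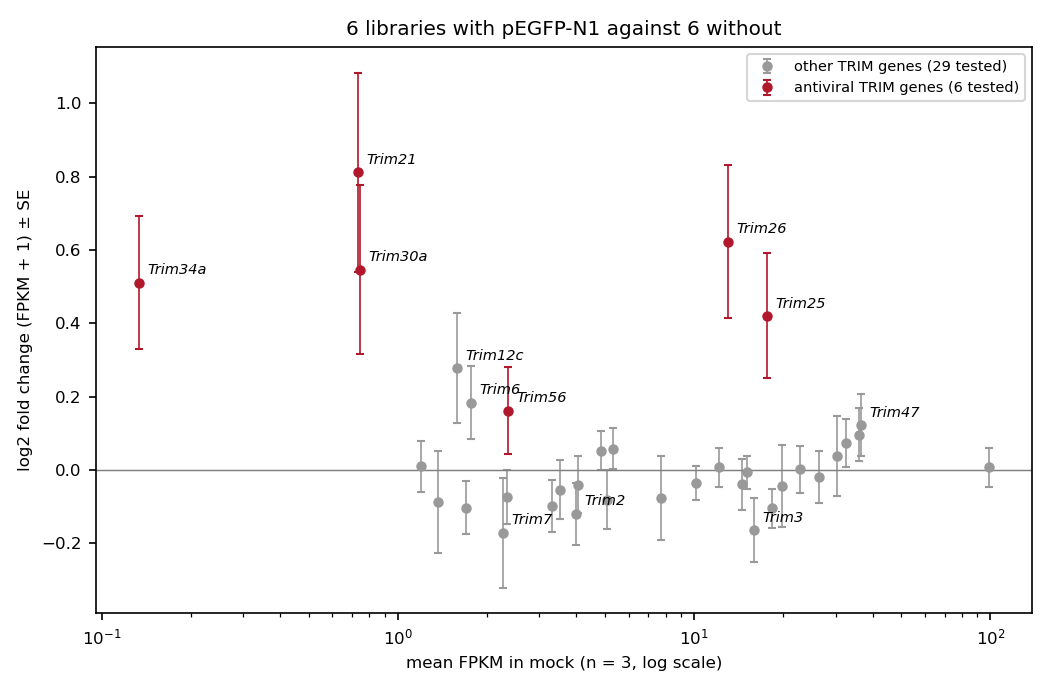
Plasmid averaged log2(FPKM + 1) difference for the 6 tested antiviral TRIM genes and the 29 other tested TRIM genes, 1 point per gene with its standard error, against mean FPKM in mock on a log axis. Trim21, Trim25, Trim26, Trim30a and Trim34a lie between 0.42 and 0.81, and the other TRIM genes between −0.17 and 0.28. Trim56, at 0.16, lies within the range of the other TRIM genes.

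The remainder of the TRIM family was the comparison within the table. Of 58 other TRIM genes, 29 passed the filter, 28 were below 1 FPKM in every library, and 0 were called by limma in any of the 6 comparisons. In pEGFP-N1 minus mock 1 of 29 was higher and 2 were lower at an unadjusted p under 0.05, against 4.69% of all genes. The higher one was Trim12c, at 0.56 (SE 0.21, limma adjusted p = 0.912), beside 0.61 for Trim34a and 0.45 for Trim25. In the averaged plasmid comparison 0 of 29 passed an unadjusted p under 0.05, against 6.12% of all genes. Their median was −0.036, beside 0.53 for the 6 tested antiviral genes and −0.015 for all genes. Trim34a passed the filter only through its 3 high libraries, and Trim21 and Trim30a through these and 1 more. The antiviral list was also chosen with earlier results of these data known, so the gap between the medians is a description. The highest were Trim12c (0.28, SE 0.15, limma adjusted p = 0.788), Trim6 (0.18) and Trim47 (0.12), and the lowest were Trim7 (−0.17), Trim3 (−0.16) and Trim2 (−0.12). Trim12c and Trim6, at the top, are copies of the chromosome 7 cluster. Trim6 was highest in the library labelled BX795 plus pEGFP-N1 replicate 3, at 2.44 FPKM. It read 2.33, 2.39 and 2.09 in the 3 libraries with high interferon genes. Trim12c read 3.21, 2.05 and 3.23 FPKM with the pEGFP-N1 label, 3.55, 1.47 and 1.58 with the label of both agents, 1.67, 1.59 and 1.47 in mock, and 1.70, 2.49 and 2.08 with BX795, so its highest 3 libraries were those of the antiviral genes. Trim12a and Trim30b, also of the cluster, did not exceed 0.05 FPKM in any library. Trim5, below the filter, read 0.45, 0.21 and 0.71 with the pEGFP-N1 label, 0.57, 0.14 and 0.21 with the label of both agents, 0.05, 0.17 and 0.26 with BX795, and 0.17, 0.10 and 0.12 in mock, so the same 3 libraries were its highest.

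The partners and substrates of these TRIM proteins gave 14 tested genes and 0 calls by limma, with 4 higher and 1 lower at an unadjusted p under 0.05 in the averaged plasmid comparison (6.12% of all genes in either direction) and a median of 0.054. The lower gene was Sting1, the adaptor of cytosolic DNA sensing, named after its values were seen, at −0.24 (SE 0.087, limma adjusted p = 0.788). Sting1 read 5.38, 6.26 and 5.73 FPKM in mock, 4.48, 5.86 and 3.75 with the pEGFP-N1 label, 4.37, 5.18 and 4.65 with BX795, and 3.83, 4.36 and 3.73 with the label of both agents. Ube2l6, the ISG15-conjugating enzyme and the other gene outside the naming rule, was 0.11 higher (SE 0.049, limma adjusted p = 0.788) and did not follow the 3 high libraries, at 15.27 FPKM in BX795 plus pEGFP-N1 replicate 1 and 16.40 to 16.59 with BX795 alone. Isg15, the ubiquitin-like modifier that Trim25 can attach to proteins, read 151.74, 1.38 and 129.16 FPKM with the pEGFP-N1 label and 143.85, 3.39 and 5.15 with the label of both agents, against 1.46, 2.22 and 2.61 in mock. Ddx58, which encodes RIG-I, the substrate of Trim25, read 13.73, 2.35 and 12.88 FPKM with the pEGFP-N1 label and 13.62, 2.43 and 2.91 with the label of both agents. Its mock values were 1.52, 1.65 and 1.55, and it read 2.34, 2.59 and 2.54 with BX795. Zc3hav1, which encodes ZAP, read 74.23, 50.55 and 76.97 with the pEGFP-N1 label and 73.73, 56.38 and 64.25 with the label of both agents, against 52.21, 53.14 and 52.60 in mock, and with BX795 alone 56.44, 53.92 and 53.22. Ddx58 differed by 1.26 (SE 0.40) and Zc3hav1 by 0.28 (SE 0.098) in the averaged plasmid comparison, each with a limma adjusted p of 0.788.

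For the 5 tested members that ranged over at least 1 on the log2(FPKM + 1) scale, which leaves out Trim56, the genes most like them in pattern were found by the root mean square difference, in log2(FPKM + 1) relative to the mock mean, over the 9 libraries outside mock. Herc6 was nearest to Trim21 (0.066), and Parp14 (0.15) came next. Zcchc2 was nearest to Trim25 (0.067), followed by Atm (0.098). Zbtb3 was nearest to Trim26 (0.12), and Car13 was nearest to both Trim30a (0.13) and Trim34a (0.097). Likeness on this scale is not likeness in fold: Car13 went from 24.2 FPKM in mock to between 52.13 and 52.67 in the 3 high libraries, a smaller ratio than that of Trim30a or Trim34a, whose low levels are damped by the added 1. The libraries share their preparation, and likeness here says how closely values ran together.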

How the data were processed

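RNA of 12 L929 libraries was sequenced on the BGISEQ-500. The authors aligned reads with Bowtie2 2.2.5 to GRCm38.p5 and estimated expression with RSEM, and the FPKM they deposited, given to 2 decimals, are listed by Entrez identifier. The annotation, strand setting and depth are not given in the sources used here. Of 17571 identifiers, 17450 matched RefSeq and 121 did not. FPKM summed to 467348 to 513761 per library, and 0 of 66 library pairs were identical. The test of the study needs read counts, so limma 3.58.1 (R 4.3.3, 4 group means, empirical Bayes with a trend) was used on log2(FPKM + 1) for 10412 genes, with a call at an adjusted p under 0.05. Single genes were also compared by two-sided exact permutation tests in scipy 1.17.1 under Python 3.11.15. A fold change on this scale understates that of low genes. The limma step was tested on simulated data with independent noise. No simulated library departed from its group, so that test does not cover the libraries that stand apart.

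Groups came from the labels. The 9 TRIM genes, the comparison lists (interferon genes, other TRIM genes, partners, cell markers) and the alternatives were chosen with earlier results of these data known. Named from the other TRIM genes were any called, the 3 highest and 3 lowest in the averaged plasmid comparison, and chromosome 7 copies; from the partners Isg15, Ddx58 and Zc3hav1; and the nearest genes in pattern. Sequences and promoters came from RefSeq (GRCm38.p6), and 31-base words from GENCODE transcripts (GRCm38). Alternatives covered pseudocount, filter, scaling, replicate block, summed copies, thresholds of the study (adjusted p of 0.001 or less, log2 difference of 2 or more) and left-out libraries.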

Additional observations from a re-analysis of the deposited data

How the results depend on the processing

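Results kept their direction and side of the threshold under most alternatives. The median over the tested genes in pEGFP-N1 minus mock moved to 1.05 with a pseudocount of 0.1 and 1.09 with 0.01. Without both libraries that stand apart, 4 genes were called in pEGFP-N1 minus mock (median 1.17), in BX795 plus pEGFP-N1 minus pEGFP-N1 (median −1.08), in the averaged plasmid comparison and in the difference between plasmid effects (median 1.17).

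Directions turned for small differences. In BX795 minus mock, quantile normalization gave −0.043 for Trim21 and −0.0044 for Trim30a, and division by the 75th percentile gave 0.00059 for Trim56. In BX795 plus pEGFP-N1 minus pEGFP-N1, a pseudocount of 0.01 gave 0.077 for Trim34a. Without both libraries, Trim30a was −0.011 in BX795 plus pEGFP-N1 minus BX795, and Trim56 was −0.052 in BX795 plus pEGFP-N1 minus pEGFP-N1 and 0.051 in the difference of effects. The cause was not tested.

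Leaving out 1 library at a time, calls ranged from 0 to 5 in the averaged plasmid comparison and were 0 in the others. The median over the tested genes ranged from 0.53 to 1.05 in pEGFP-N1 minus mock, from 0.11 to 0.57 in BX795 plus pEGFP-N1 minus BX795 (lowest without BX795 plus pEGFP-N1 replicate 1), from −0.68 to −0.053 in BX795 plus pEGFP-N1 minus pEGFP-N1, and from 0.14 to 0.77 in the difference of effects. Directions turned for Trim56 in BX795 minus mock (−0.044 to 0.052) and for Trim30a in BX795 plus pEGFP-N1 minus BX795 (−0.011 to 0.51). They turned in BX795 plus pEGFP-N1 minus pEGFP-N1 for Trim25 (−0.45 to 0.054), Trim34a (−0.40 to 0.089) and Trim56 (−0.0998 to 0.28), and in the difference of effects for Trim25 (−0.11 to 0.39) and Trim56 (−0.29 to 0.098).

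The replicate numbers did not meet the condition for pairing, a correlation over 0.1 in every same-numbered pair: 6 of 18 same-numbered pairs correlated over 0.1, with a range from −0.389 to 0.635, and 2 of 12 libraries correlated best with their own number in every other group, although the own number was best in 21 of 36 cases of a library and another group. With the replicate block, 0 members were called in all 6 comparisons, and calls over all genes in pEGFP-N1 minus mock were 5 in place of 7. Fitting only the groups compared was not possible for the 2 comparisons that use all 4 groups. FPKM without read totals limits what can be said of Trim14, Trim30d and Trim34b.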
